A study of Mus musculus with 24 samples.

Results

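Hras and 9 genes that are commonly read as outputs of the MAPK pathway were followed in 24 mouse prostate tumors. The 10 genes were Hras, Dusp4, Dusp6, Spry2, Spry4, Spred1, Etv4, Etv5, Phlda1 and Epha2. They are the rows of the count table whose Ensembl identifiers carry these symbols in GENCODE M21, 10 of 55401 rows, with 1 row for each symbol. The tumors grew from TC2Ras cells, which are TRAMP-C2 mouse prostate adenocarcinoma cells that also carry a lentivirus for activated H-Ras and a lentivirus for the mouse androgen receptor. All hosts were male C57/BL6 mice of 8 to 10 weeks of age.

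In the subcutaneous (SC) model, tumors were taken 1 week after implantation from mice treated with an empty vector (SC control, n = 2) or with an IL-27 vector (SC IL-27, n = 2). In the intratibial model, a luciferase-expressing TC2Ras subline (TC2Ras-Luc) was placed in the tibia. Each mouse received the empty vector or the IL-27 vector into muscle by sonoporation, and either the vehicle polyvinylpyrrolidone (PvP) or the tyrosine kinase inhibitor cabozantinib (cabo) by mouth. The groups were control (empty vector and PvP), IL-27 (IL-27 vector and PvP), cabo (empty vector and cabo) and IL-27+cabo. There were 3 tumors per group at day 14 and 2 per group at the end of the study (EOS). Cabo or PvP was stopped before EOS. The intratibial labels number the mice, whereas the SC labels give replicate numbers only, so the SC p-values may measure a technical spread.

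H-Ras is a small GTPase. When it is bound to GTP it recruits the RAF kinases, which activate MEK and then ERK, the last kinase of the MAPK cascade. ERK raises the transcription of its own inhibitors and of several transcription factors, so the RNA of these genes is often used to read how active the pathway is. The species of the lentiviral H-Ras was not given in the sources used here. Reads of a transgene and of the endogenous gene cannot be told apart in the Hras row, and a transgene of another species may be counted in part or not at all.

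Nras, which encodes a relative of H-Ras, served as a reference for Hras. The longest transcript in GENCODE M21 (GRCm38) was 55.2% G and C in Hras and 42.6% in Nras. GC content is a property along which the SC libraries differed. Hras lies at chr7:141189105-141194005 on the minus strand.

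The other members were spread over the genome. The phosphatase genes Dusp4 (chr8:34807297-34819894) and Dusp6 (chr10:99263231-99267489) were both on the plus strand. The Sprouty genes Spry2 (chr14:105891947-105896819) and Spry4 (chr18:38586247-38601415) were on the minus strand, and their relative Spred1 (chr2:117121374-117182279) was on the plus strand. The ETS factor genes Etv4 (chr11:101769742-101785371) and Etv5 (chr16:22381309-22439719) were on the minus strand. Phlda1 (chr10:111506286-111508645) and Epha2 (chr4:141301240-141329384) were on the plus strand. Exons of Phlda1 share 727 bases with the lincRNA gene Gm28592 on the opposite strand, so part of the Phlda1 counts is uncertain where the counting did not use strand. No overlap of exons with another gene was found for the other members.

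Levels are given as CPM, counts per 1000000 counts of a library after scaling with edgeR's TMM factors, separately for the SC and the intratibial tumors, so no test was made across the sites. Libraries held between 63729005 and 83782258 counts, and the members' counts ran from 163 for Hras to 33765 for Dusp4. Within groups, Pearson's r across genes ran from 0.963 to 0.988. The library of mouse 20 (day 14 IL-27+cabo) stood apart, with the fewest genes detected (21269). In that library the genes with the highest GC content were shifted up by 1.02 on the log2 scale against those with the lowest, relative to the median intratibial library, while the other 19 intratibial libraries lay between -0.133 and 0.125. For comparisons that include mouse 20, the fold changes of Hras and Dusp4 that are printed are given with and without it. In the SC tumors the same shift was 1.93 and 1.11 in the controls and -1.59 and -1.41 with IL-27, so GC content and treatment moved together. The epithelial keratin gene Krt8 averaged 44.1 CPM in SC controls and 40.5 CPM in day 14 controls, while Epcam averaged 0.167 and 2.72 CPM in these groups.

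**Figure D1:**
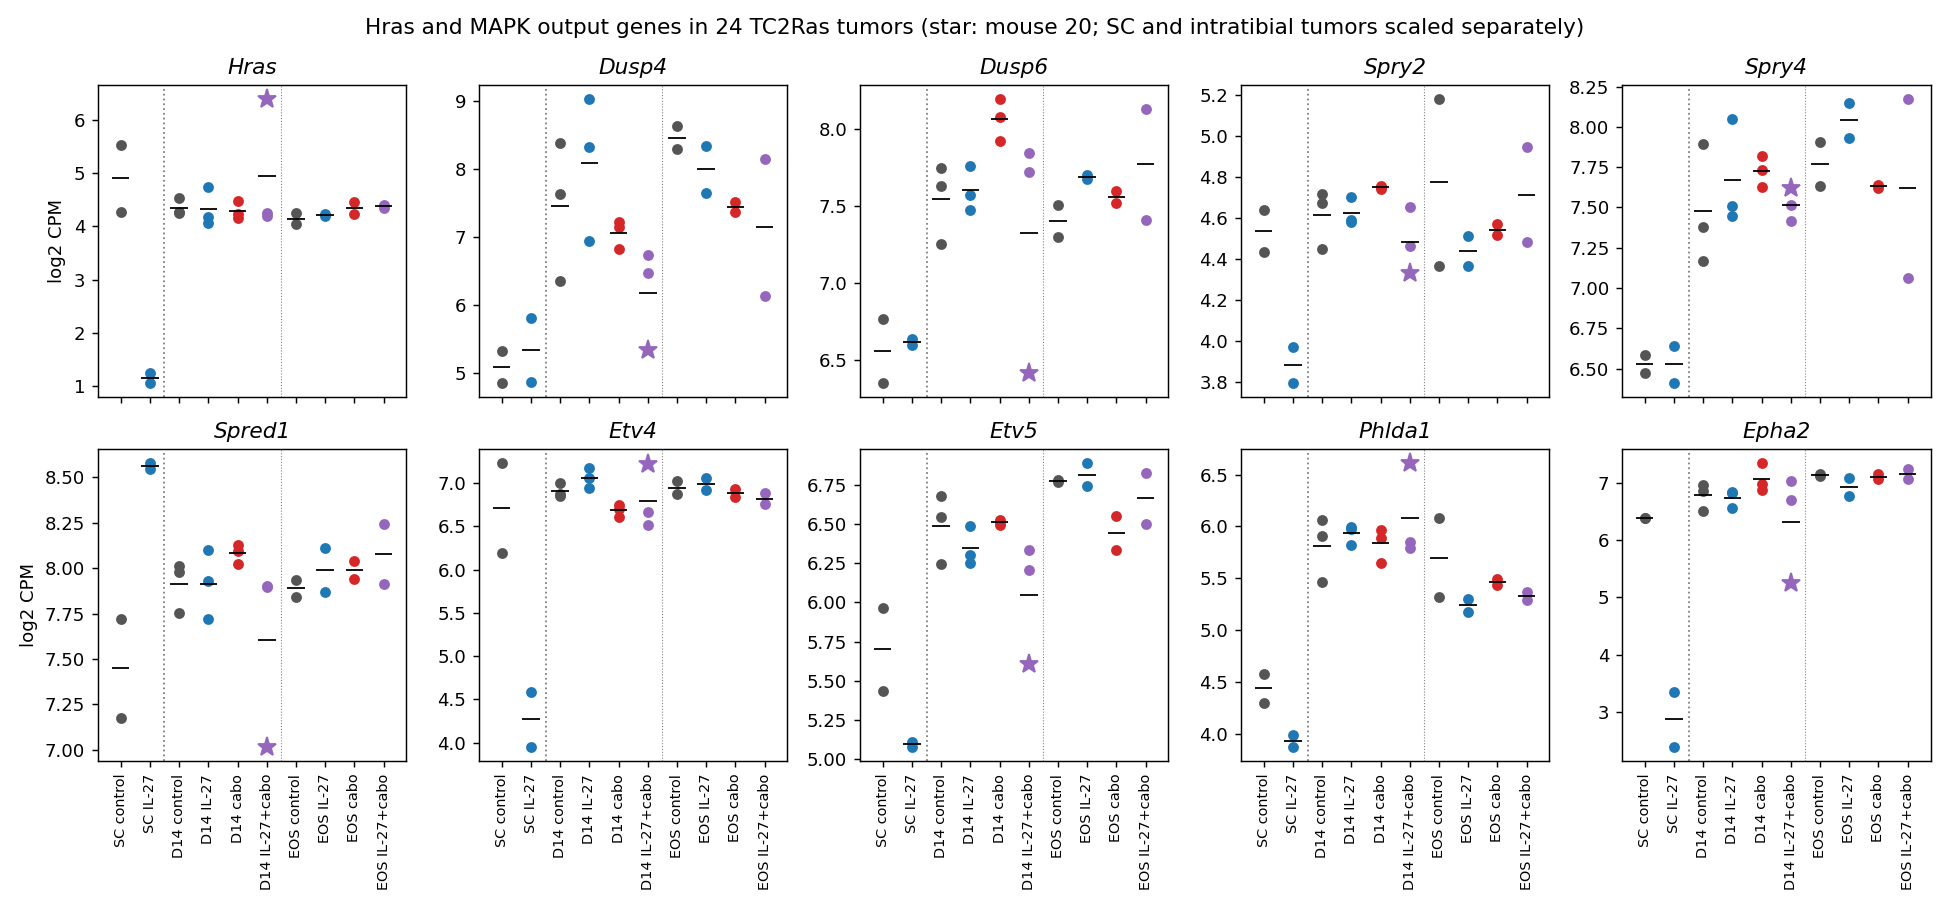
Level of each of the 10 genes in every tumor, as log2 CPM on the y axis, by group on the x axis (points: tumors, black bars: group means, star: mouse 20, with SC and intratibial tumors scaled separately). Hras was lower in both SC IL-27 tumors than in every SC control, and apart from mouse 20 it lay between 16.5 and 26.6 CPM in all intratibial tumors, whereas Dusp4 ranged from 40.5 to 523 CPM.

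The first question was whether the IL-27 vector changed these genes in SC tumors after 1 week. Hras, Epha2 and Etv4 were lower with IL-27, and no member was called higher. These 3 of 10 members passed edgeR's quasi-likelihood test at a Benjamini-Hochberg adjusted p under 0.05. Of the 19360 genes tested, 16.5% were called lower and 3.52% higher. At an unadjusted p under 0.05 there were 4 members, against 35.4% of all genes. The groups did not overlap for 7 of the 10 members, against 66.9% of all genes. The members' median log2 fold change was -0.57, and that of all genes tested was 0.04.

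Hras measured 46.3 and 19.2 CPM in the SC controls and 2.07 and 2.33 CPM with IL-27. The controls differed from each other by more than the IL-27 treated tumors did, and the groups did not overlap. The log2 fold change was -3.89 (SE 0.54, 14.9-fold lower, adjusted p = 0.00371 in edgeR). Per kilobase of exon, Hras averaged 8.77 CPM in the controls and 0.589 CPM with IL-27. Nras averaged 29.4 CPM per kilobase in the controls and 53.0 with IL-27, and did not pass the edgeR test (log2 fold change 0.85, SE 0.32, adjusted p = 0.111).

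Epha2 encodes a receptor tyrosine kinase for ephrins whose transcription is raised by ERK. It measured 83.0 and 83.7 CPM in the SC controls and 10.2 and 5.23 CPM with IL-27. Its log2 fold change was -3.43 (SE 0.43, 10.8-fold lower, adjusted p = 0.00275 in edgeR). Etv4 encodes an ETS transcription factor of the PEA3 family. It measured 150.1 and 72.9 CPM in the controls and 24.1 and 15.4 CPM with IL-27, without overlap. Its log2 fold change was -2.50 (SE 0.47, 5.64-fold lower, adjusted p = 0.0108 in edgeR). Its close relative Etv5 did not pass (log2 fold change -0.63, SE 0.33), although its controls at 43.2 and 62.4 CPM lay above both treated tumors at 34.5 and 33.7 CPM.

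The feedback inhibitors did not share one direction. Spred1, which holds back RAF activation by RAS, measured 145 and 211 CPM in the SC controls and 382 and 373 CPM with IL-27. Its log2 fold change of 1.08 (SE 0.34) missed the threshold at an adjusted p of 0.0674 in edgeR, and it passed with DESeq2 (adjusted p = 0.0111) and without SC control replicate 2 (adjusted p = 0.0262), a fit with 1 control in which the spread comes from the IL-27 tumors alone. Dusp4 and Dusp6, phosphatases that remove the activating phosphates of ERK, had log2 fold changes of 0.30 (SE 0.41) and 0.04 (SE 0.32), with overlapping groups. The Sprouty genes, whose proteins inhibit signaling from receptors to RAS and RAF, had log2 fold changes of -0.65 (SE 0.35, Spry2) and 0.00 (SE 0.31, Spry4). Phlda1, a pleckstrin-homology-like domain gene induced by growth factors, had a log2 fold change of -0.52 (SE 0.35). None of these 5 genes passed the edgeR test.

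**Figure D2:**
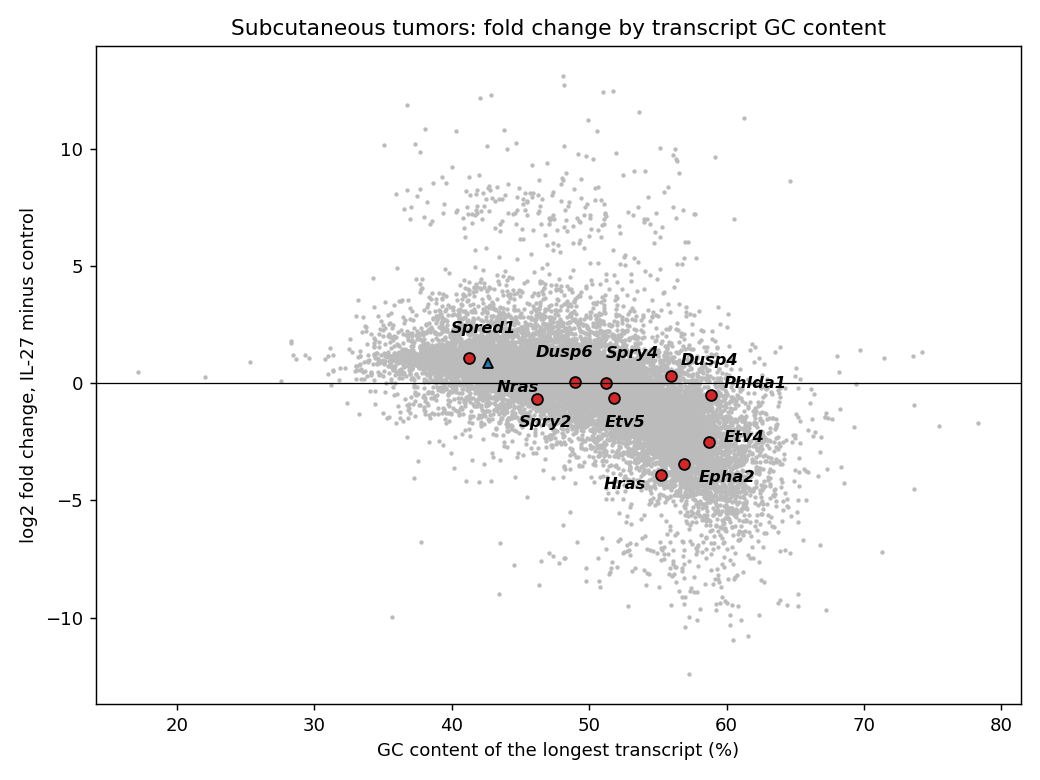
Log2 fold change of every gene tested in the SC comparison (IL-27 minus control, y axis) against the GC content of its longest transcript (x axis, percent), with the 10 genes as red circles, Nras as a blue triangle and all other genes in grey. Fold changes fell as GC content rose, from a median of 0.86 in the lowest of 4 equal GC bins to -2.10 in the highest, which held Hras, Etv4 and Epha2.

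In the SC comparison a gene's fold change moved with its GC content. Genes were divided by transcript GC content into 4 bins of equal size. In the lowest bin the median log2 fold change was 0.86, and 0.352% of genes were called lower. In the next bins the medians were 0.37, -0.36 and -2.10, and 1.47%, 12.1% and 52.1% of genes were called lower. The highest bin, which starts at 54.2% G and C, held 5 members, and 3 of these were the called ones. The others there, Dusp4 (56.0%) and Phlda1 (58.9%), were not called. The 5 members in the lower bins had transcripts of 41.2% (Spred1) to 51.8% (Etv5), and none was called.

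A correction for GC content and transcript length within each library left Hras lower (log2 fold change -2.34, adjusted p = 0.0242 in edgeR). With it, Epha2 no longer passed (-1.35, adjusted p = 0.0742), and the value of Etv4 changed sign and was near 0 (0.09, adjusted p = 0.929). Dusp4 (2.05, adjusted p = 0.0285) and Phlda1 (2.07, adjusted p = 0.0135) were then called higher. Spred1 moved from 1.08 to 0.03. Over all genes the correction left 1471 calls, 474 higher and 997 lower, against 3880 without it, 682 higher and 3198 lower, and 5968 with DESeq2, 2089 higher and 3879 lower. Which of the sets of values is nearer to the RNA in the tumors was not tested.

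**Figure D3:**
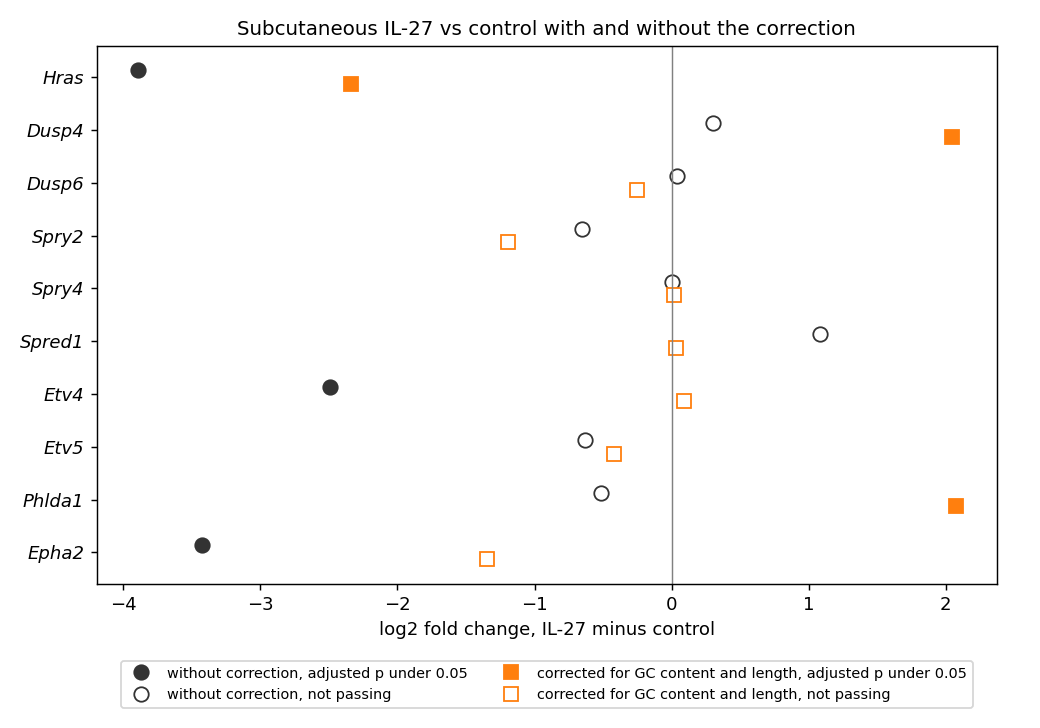
Log2 fold change of the 10 genes in the SC comparison (IL-27 minus control, x axis) without (black circles) and with (orange squares) the correction for GC content and transcript length. Filled symbols passed an adjusted p under 0.05. Hras passed both ways, Etv4 and Epha2 passed only without the correction, and Dusp4 and Phlda1 only with it.

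Markers of other cells differed between the SC groups as well. The summed level of 10 skeletal muscle genes was 2.72 to 12.3 CPM in the controls, where up to 3 of them were at 0 in a tumor, and 366 to 979 CPM with IL-27, and 9 of the 10 were called higher. The 5 T cell markers summed to 6.86 to 7.37 CPM in the controls and 18.9 to 25.8 CPM with IL-27. Of these, Cd3g and Cd8a were called higher. The 6 macrophage markers summed to 1123 to 1328 and 937 to 1331 CPM. Cd68, C1qa and C1qb were called lower, while Mrc1 and Adgre1 had positive values that were not called. The 8 endothelial markers summed to 362 to 377 and 322 to 723.5 CPM. Tie1, Eng and Cldn5 were called lower, while Pecam1, Tek and Emcn had positive values that were not called. The summed level of 8 marrow myeloid genes was 0.878 to 2.01 CPM in the controls and 37.8 to 39.5 CPM with IL-27, while that of 8 epithelial genes was 27.8 to 76.2 and 4.40 to 12.2 CPM. Krt8, at 20.8 to 67.3 CPM, made up most of the epithelial sum in the controls. Of that list Krt8 and Krt19 were called lower, with transcripts of 57.1% and 57.6% G and C. Cdh1 went the other way (log2 fold change 0.75, SE 0.87) and Epcam was near 0 (-0.07, SE 1.24). Krt18 and Cldn4 were lower but not called, and Krt7 and Cldn7 were not tested. The part of all these markers in the members' changes was not tested. In bulk tumors fewer cells of a type and less RNA per cell cannot be told apart.

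The rest of the pathway was read from 60 other genes in 5 lists. In the SC comparison 12 of the 60 were called lower and 1 higher by edgeR, beside 16.5% and 3.52% of all genes, so the lists lay near the background. Of 14 RAS genes and RAS regulators, only Rras was called (log2 fold change -2.12, SE 0.47, adjusted p = 0.0208). Of 8 genes of the kinase cascade, the scaffold gene Ksr1 (-2.72), the MEK gene Map2k2 (-6.13) and the ERK1 gene Mapk3 (-2.38) were called lower. Of 19 further output genes, Dusp7 (-2.67) and the AP-1 gene Fosl1 (-5.74) were called lower and Emp1 (1.17) higher, while the cyclin D1 gene Ccnd1 (-0.85, SE 0.34) and Epha4 (-0.05, SE 0.51) did not pass. Among 10 receptor kinases inhibited by cabo, Tyro3 (-2.78), Flt3 (-1.93) and Flt4 (-1.84) were called lower and Met (0.75, SE 0.47) did not pass. Among 9 other growth factor receptors, Erbb2 (-3.01), Fgfr1 (-1.60) and Pdgfrb (-1.76) were called lower. Of the 12 genes called lower, 11 lay in the highest GC bin, which held 20 of the 60 genes.

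In the intratibial tumors the 10 genes differed in abundance. Per kilobase of exon, the median over 20 tumors was highest for Dusp6 (64.4 CPM) and Dusp4 (63.8), followed by Spry4 (41.6), Etv4 (38.1), Spred1 (36.2), Epha2 (26.9), Phlda1 (25.4), Etv5 (22.2) and Spry2 (11.5). Hras was the lowest, at 5.07 CPM per kilobase, against 29.8 for Nras, in a line that carries an H-Ras transgene.

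Apart from mouse 20, Hras lay within a narrow range in the intratibial tumors (16.5 to 26.6 CPM). At day 14 it measured 22.9, 18.9 and 19.4 CPM in the controls, 16.8, 18.1 and 26.6 CPM with IL-27 and 17.7, 18.8 and 22.1 CPM with cabo. With IL-27+cabo it measured 18.9 and 18.3 CPM in mice 22 and 24 and 83.7 CPM in mouse 20. At EOS it measured 16.5 and 18.9 CPM in the controls, 18.2 and 18.8 with IL-27, 18.9 and 21.96 with cabo and 20.3 and 21.1 with IL-27+cabo. In the order of group means, each of the 8 groups overlapped the next.

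Dusp4 was the most variable member. Its within-group SD was 0.81 on the log2 scale, at percentile 92.6 of 14184 expressed genes, whose median was 0.36. At day 14 it measured 82.1, 198.5 and 334 CPM in the controls, 319, 523 and 123 CPM with IL-27, 149.8, 113 and 142 CPM with cabo and 40.5, 106 and 89.0 CPM with IL-27+cabo. At EOS it measured 398 and 314 CPM in the controls, 325 and 200.4 with IL-27, 165.5 and 184 with cabo and 285 and 70.02 with IL-27+cabo. The day 14 IL-27+cabo group lay lowest and did not overlap the day 14 cabo group, the next in the order of means. All other neighbours in that order overlapped. The within-group SD of Etv4, by contrast, was 0.17, or 0.09 without mouse 20, and that of Spry2 was 0.21.

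Over the 20 intratibial tumors the lowest, median and highest levels were 85.4, 202 and 293 CPM for Dusp6, 134, 198 and 288 CPM for Spry4 and 129, 245 and 303 CPM for Spred1. They were 48.6, 91.1 and 118 CPM for Etv5, 36.2, 56.1 and 97.5 CPM for Phlda1 and 37.8, 126 and 161 CPM for Epha2. Many of these extremes came from mouse 20, in which Hras, Etv4 (149 CPM) and Phlda1 were the highest of the 20 tumors and Dusp4, Dusp6, Spry2, Spred1, Etv5 and Epha2 the lowest. The summed epithelial markers in the IL-27+cabo group at day 14 measured 310 CPM in mouse 20 and 78.2 and 88.2 CPM in the others, against 46.9 to 73.5 CPM in the controls. They measured 278 CPM in EOS IL-27+cabo mouse 16, where Hras was 20.3 CPM. Krt8 alone made up 207 CPM of the sum in mouse 20 and 261 CPM in mouse 16. In the EOS IL-27+cabo tumors Epcam was 2.30 to 2.85 CPM and Cdh1 3.68 to 5.06 CPM, against 1.93 to 2.45 and 5.81 to 10.2 CPM in the EOS controls. The part of these differences in the members' values was not tested.

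No member passed the edgeR test in the intratibial tumors. Across 12 comparisons, 0 of 120 tests of members had an adjusted p under 0.05 in edgeR. At an unadjusted p under 0.05 there were 9 of 120, while the share of all genes ran from 1.88% to 18.9% by comparison. With DESeq2 4 passed, 1 for cabo at day 14 and 3 for cabo between EOS and day 14, where it called 1324 and 1650 genes in all. The comparisons of each treatment with control and those of EOS with day 14 share groups, so they are not independent.

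**Figure D4:**
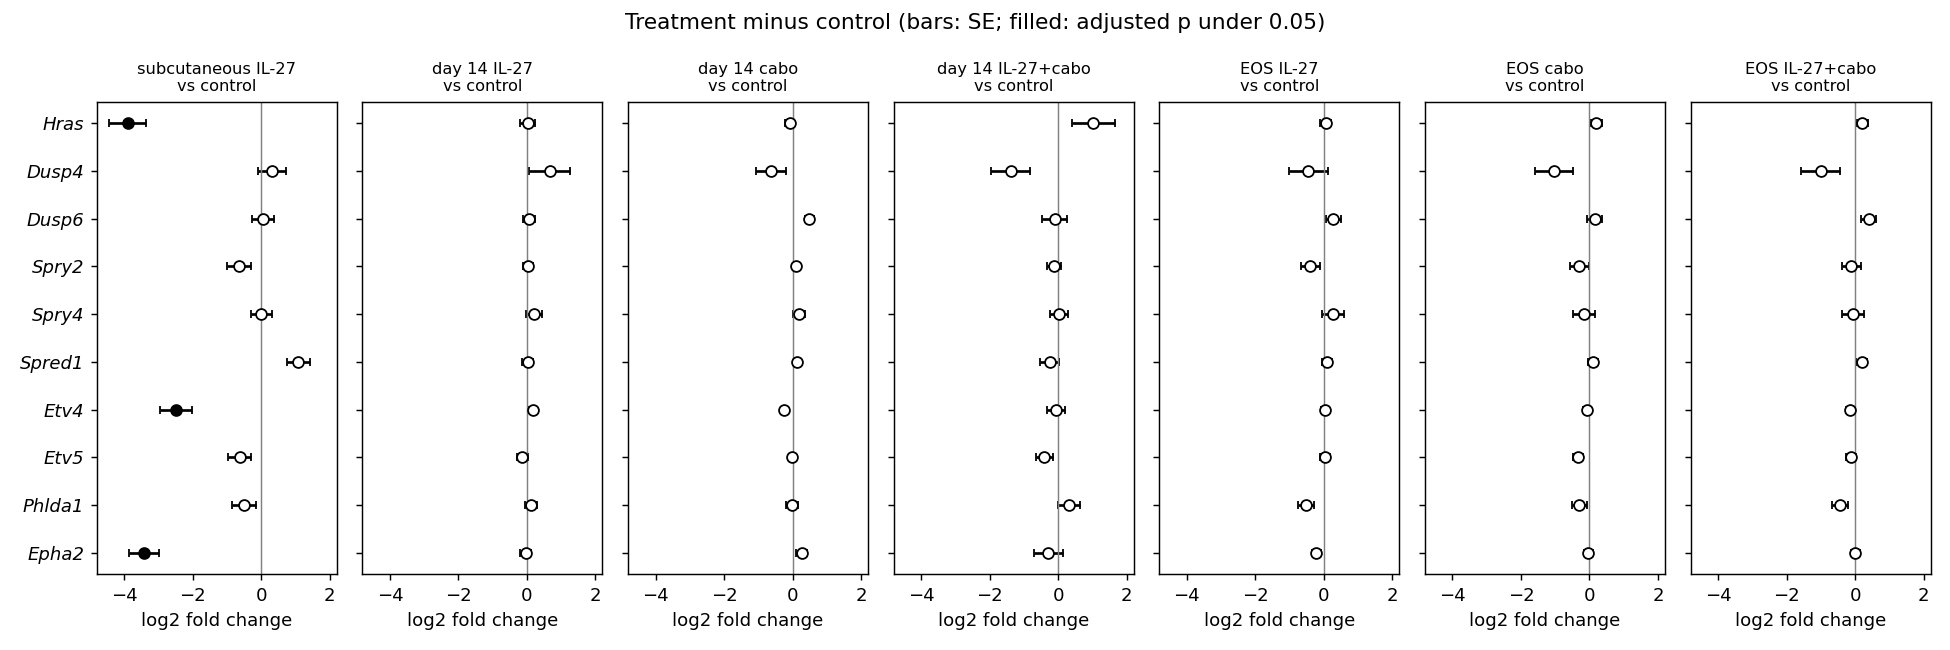
Log2 fold change (x axis) of the 10 genes (y axis) in the 7 comparisons of a treatment with its control, with SE bars. Filled points had an adjusted p under 0.05, and these were Hras, Etv4 and Epha2 in the SC comparison.

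IL-27 alone against control at day 14 asked whether the vector changed the pathway in bone. No member was called, as was the case for all genes (0.00% of 18519, with 511 genes or 2.76% at an unadjusted p under 0.05 and 3 called by DESeq2). The members' log2 fold changes ran from -0.13 (Etv5) to 0.67 (Dusp4, SE 0.60), and the groups overlapped for every member, against 7.78% of all genes without overlap. Hras had a log2 fold change of 0.02 (SE 0.21). The muscle markers summed to 25.8, 61.5 and 1802 CPM in IL-27 mice 4, 6 and 8, against 5.22 to 124 CPM in the controls. In the same mice the T cell markers summed to 41.95, 5.8 and 9.0 CPM, against 42.7 to 47.7 CPM. The fibroblast markers summed to 5527 to 6233 CPM with IL-27, against 7051 to 8088 CPM. The part of these markers in the members' values was not tested. At EOS, 0 members and 0.00% of 20026 genes were called (651 genes or 3.25% at an unadjusted p under 0.05, 26 by DESeq2). The groups did not overlap for 4 members, against 32.8% of genes, and the members ran from -0.52 (Phlda1, SE 0.23) to 0.28 (Dusp6, SE 0.22).

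Cabo against control at day 14 asked whether inhibition of receptor kinases lowered MAPK output. No member was called in edgeR, against 1.89% of 18627 genes, and 2 members against 18.9% of genes had an unadjusted p under 0.05. Dusp6 was higher in each of the 3 cabo tumors (271, 243 and 293 CPM) than in any control (198, 215 and 153 CPM). Its log2 fold change was 0.49 (SE 0.14, 1.40-fold higher, adjusted p = 0.126 in edgeR), and it passed with DESeq2 (adjusted p = 0.0184). Etv4 was lower in each cabo tumor (108, 97.5 and 104 CPM) than in any control (118, 115 and 128 CPM), with a log2 fold change of -0.24 (SE 0.08, adjusted p = 0.182 in edgeR). The groups did not overlap for 4 of 10 members, against 26.9% of all genes. The other 8 members ran from -0.63 (Dusp4, SE 0.43) to 0.27 (Epha2, SE 0.15).

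Upstream of RAS, genes of 2 VEGF receptors were lower with cabo at day 14. Of the 10 genes of receptor kinases inhibited by cabo, Flt4 (log2 fold change -4.26, SE 0.30, adjusted p = 0.00256) and Kdr (-1.56, SE 0.28, adjusted p = 0.0401) were called lower in edgeR, whereas the third VEGF receptor gene, Flt1 (-1.12, SE 0.23, adjusted p = 0.0572), and Met (0.29, SE 0.18) did not pass. Erbb2 was called higher (0.83, SE 0.15, adjusted p = 0.0401). None of the 14 RAS genes and regulators, 8 cascade genes and 19 further output genes was called, with 4, 2 and 2 at an unadjusted p under 0.05, beside 18.9% of all genes. Nras had a log2 fold change of 0.03, and Ccnd1 and Epha4 of 0.01 and -0.30. The summed level of 8 endothelial markers was 188 to 314 CPM in the controls and 146 to 162 CPM with cabo, where 3 of the 8 were called lower, and that of the muscle genes was 5.22 to 124 and 1089 to 1705 CPM. The 5 T cell markers, of which Cd3e, Cd3g and Cd4 were called lower, summed to 42.7 to 47.7 CPM in the controls and 11.6 to 18.2 CPM with cabo. Cd8a of the same list had a log2 fold change of 2.62 (SE 0.63, adjusted p = 0.0859 in edgeR), with no overlap between the groups. The 6 fibroblast markers summed to 7051 to 8088 CPM in the controls and 9970 to 10830 CPM with cabo, where Col3a1 (0.64) was called higher. The 6 erythroid markers summed to 51.9 to 237.5 and 13.95 to 29.3 CPM. The part of all these markers in the values of the members and receptor genes was not tested.

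At EOS, after cabo had been stopped, no member and 0.00% of 20026 genes were called for cabo against control (1783 genes or 8.90% at an unadjusted p under 0.05, 242 by DESeq2). For 4 members, against 43.0% of genes, the groups did not overlap. Dusp6 measured 183 and 194 CPM with cabo and 157 and 182 CPM in the controls (log2 fold change 0.15, SE 0.22). Dusp4 had the lowest value among members, at -1.03 (SE 0.56, adjusted p = 0.65 in edgeR), without overlap between the groups. The muscle markers summed to 102 to 794 CPM with cabo and 5.35 to 10.5 CPM in the controls, the endothelial markers to 314 to 352 and 161 to 267 CPM and the T cell markers to 3.98 to 4.29 and 7.60 to 8.55 CPM. Their part in the members' values was not tested.

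With IL-27+cabo at day 14, no member and 0.0640% of 18750 genes were called. At an unadjusted p under 0.05 there was 1 member, Dusp4, against 6.20% of genes, and the groups overlapped for every member, against 15.1% of genes without overlap. Without mouse 20, Hras and Etv4 had no overlap, as did 35.0% of genes. Of the listed genes Flt4 was called lower (-3.63, SE 0.36, adjusted p = 0.0406 in edgeR), as was the T cell marker Cd3e (-2.67). The 8 endothelial markers summed to 113 to 147 CPM, against 188 to 314 CPM in the controls. The muscle markers summed to 1435 to 4288 CPM, against 5.22 to 124 CPM, and the T cell markers to 9.59 to 12.8 CPM, against 42.7 to 47.7 CPM. Their part in the members' values was not tested. The log2 fold change of Hras was 1.02 (SE 0.63, adjusted p = 0.807 in edgeR) with mouse 20 and -0.15 without it. Dusp4 had a log2 fold change of -1.39 (SE 0.56, unadjusted p = 0.0436, adjusted p = 0.791 in edgeR) and of -1.09 without mouse 20. Without mouse 20 the members ran from -1.09 (Dusp4) to 0.21 (Dusp6), and still none was called. At EOS, no member and 0.00% of 20026 genes were called (2835 genes or 14.2% at an unadjusted p under 0.05, 792 by DESeq2). The groups did not overlap for 2 members, against 42.2% of genes, with Dusp6 at 0.40 (SE 0.22). Dusp4 was at -1.01 (SE 0.56), but its value rested on single tumors, at -2.38 without mouse 16 and -0.32 without mouse 28. In the EOS IL-27+cabo tumors the muscle markers summed to 97.2 to 197 CPM, the endothelial markers to 280.3 to 405 CPM and the T cell markers to 3.07 to 3.79 CPM, and their part in the members' values was not tested.

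Neither test of a difference between effects called a member. For the interaction of IL-27 and cabo at day 14, 0.00% of 19899 genes were called (375 or 1.88% at an unadjusted p under 0.05, 3 by DESeq2). The interaction of Hras was 1.07 on the log2 scale (SE 0.71) and -0.07 without mouse 20, and that of Dusp4 was -1.44 (SE 0.78, adjusted p = 0.952 in edgeR) and -1.11 without mouse 20. For the change of the cabo effect between day 14 and EOS, 0.0788% of 21563 genes were called and 4.11% had an unadjusted p under 0.05. The calls included Flt4 (4.74, SE 0.43) and the endothelial marker Emcn (3.60, SE 0.44), 1 of 8 endothelial markers called. Among members, Dusp6 had a value of -0.36 (SE 0.44) and Etv4 of 0.16 (SE 0.25). That fit held all 8 intratibial groups, so the spread of mouse 20 enters these SEs, and it was not run without mouse 20.

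The comparison of EOS with day 14 within a treatment asked whether the members changed as tumors progressed or were released from cabo. In the cabo groups, where 2.09% of 19144 genes were called, no member passed in edgeR, and 4 had an unadjusted p under 0.05, as did 17.6% of genes. Dusp6 came closest, with a log2 fold change of -0.49 (SE 0.095, adjusted p = 0.0579 in edgeR). Its EOS tumors (183 and 194 CPM) both lay below every day 14 tumor. It passed with DESeq2 (adjusted p = 3.53e-05), with counts divided by 4 (0.0415) and without mouse 25 of the day 14 cabo group (0.0463). Dusp4 (0.39, SE 0.13), Etv4 (0.22, SE 0.07) and Phlda1 (-0.35, SE 0.11) also had an unadjusted p under 0.05. The groups did not overlap for 5 of 10 members, against 36.6% of all genes. In the same comparison the receptor genes Kit (1.29), Kdr (1.45), Flt1 (1.70), Flt4 (4.35) and Fgfr1 (0.54) were called higher in edgeR. So were 5 of the 8 endothelial markers, among them Cldn5 (3.94) and Emcn (3.31), whose sum was 146 to 162 CPM at day 14 and 314 to 352 CPM at EOS. The muscle markers summed to 1089 to 1705 CPM at day 14 and 102 to 794 CPM at EOS, and the T cell markers to 11.6 to 18.2 and 3.98 to 4.29 CPM. The fibroblast markers summed to 9970 to 10830 and 6071 to 6789 CPM, with Col3a1 (-0.87) and Dcn (-0.48) called lower. The macrophage markers summed to 675 to 874.5 and 509 to 524 CPM, with Mrc1 (-0.88) called lower. The erythroid markers rose, from 13.95 to 29.3 CPM at day 14 to 77.35 to 84.4 CPM at EOS. The part of all these markers in the values above was not tested. The day 14 cabo tumors enter both this comparison and the one with day 14 control, so the values of Dusp6 there are not separate evidence.

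In the control groups, 0.104% of 19292 genes and no member were called between EOS and day 14. The calls included the T cell markers Cd3e (-2.51), Cd3g (-2.85) and Cd4 (-2.30), 3 of 5, whose list summed to 42.7 to 47.7 CPM at day 14 and 7.60 to 8.55 CPM at EOS, and its part in the members' values was not tested. At an unadjusted p under 0.05 there were 13.1% of genes and no member. Overlap was absent for 3 members, against 33.5% of genes. Dusp4 had a log2 fold change of 0.80 (SE 0.49) and Epha2 of 0.35 (SE 0.16, adjusted p = 0.395 in edgeR). With IL-27 no member and 0.00% of 19078 genes were called (963 or 5.05% at an unadjusted p under 0.05, 111 by DESeq2). For 3 members, against 24.3% of genes, there was no overlap. Phlda1 measured 63.9, 63.1 and 56.6 CPM at day 14 and 36.2 and 39.3 CPM at EOS, a log2 fold change of -0.69 (SE 0.17, adjusted p = 0.818 in edgeR). Etv5 measured 89.7, 78.9 and 76.3 CPM at day 14 and 118 and 107 CPM at EOS (0.47, SE 0.16, adjusted p = 0.818 in edgeR). With IL-27+cabo no member and 0.00% of 19365 genes were called (742 or 3.83% at an unadjusted p under 0.05, 334 by DESeq2). Overlap was absent for 4 members, against 22.3% of genes, and for 6 members, against 38.1% of genes, without mouse 20. Phlda1 had a value of -0.85 (SE 0.39), or -0.50 without mouse 20. The log2 fold change of Hras was -1.03 (SE 0.80) with mouse 20 and 0.15 without it.

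Whether tumors with more Hras RNA also had more output RNA was read as a correlation of log2 CPM over the 20 intratibial tumors, with permutation p-values adjusted over the 9 genes. Over all tumors Pearson's r was -0.625 with Dusp4 (permutation p = 0.00088, adjusted p = 0.00792) and -0.721 with Etv5 (permutation p = 0.00943, adjusted p = 0.0424). Spearman's rho was -0.562 with Dusp4 (permutation p = 0.0107, adjusted p = 0.0964) and -0.22 with Etv5 (permutation p = 0.35). For Epha2, r was -0.834 while rho was -0.0331. Etv4 (0.46) and Phlda1 (0.477) were the 2 genes with a positive r.

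The relations with Etv5 and Epha2 rested on mouse 20, while that with Dusp4 kept its direction but not its call without it. Without mouse 20 and day 14 IL-27 mouse 8, the tumors farthest from the median of Hras, r was -0.511 with Dusp4 (permutation p = 0.0307, adjusted p = 0.219), -0.0266 with Etv5 and 0.299 with Epha2, and no relation passed the adjustment. With group means removed over all 20 tumors, r with Dusp4 was -0.538 (permutation p = 0.0108, adjusted p = 0.0162) and rho was -0.669 (permutation p = 0.00144, adjusted p = 0.013). Deviations within a group are tied to each other, but the permutation shuffled them freely, so these p-values may be too small. Mouse 20 was also part of that setting. Within day 14 without mouse 20 (11 tumors), r with Dusp4 was -0.426 (permutation p = 0.191), and within EOS (8 tumors) it was -0.654 (permutation p = 0.0771). When GC content and length were corrected for, no relation passed over all 20 tumors, but r stayed at -0.552 with Dusp4 (permutation p = 0.0117, adjusted p = 0.105) and at -0.795 with Epha2 (permutation p = 0.0354, adjusted p = 0.106), while rho was -0.22 and 0.0917. With that correction r moved from -0.721 to -0.341 with Etv5 and from -0.801 to 0.256 with Spred1.

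**Figure D5:**
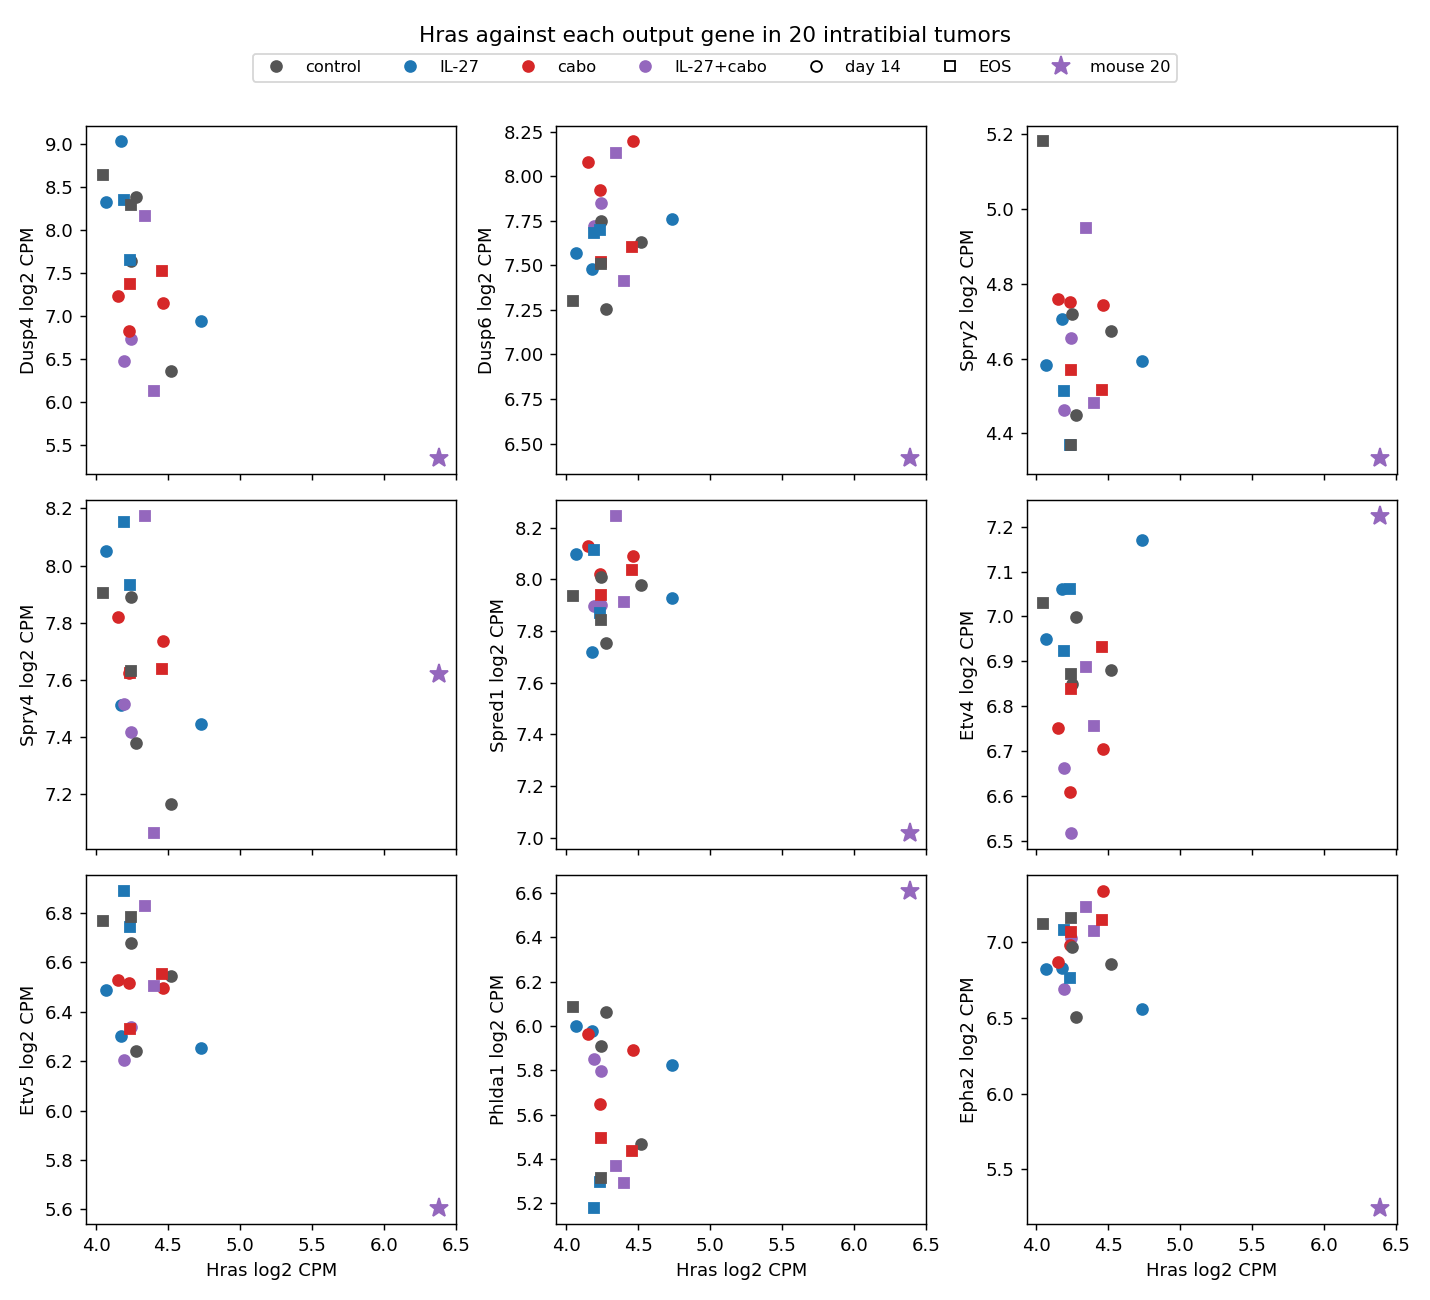
Log2 CPM of each output gene (y axes) against log2 CPM of Hras (x axis) in 20 intratibial tumors, colored by treatment, with circles for day 14, squares for EOS and a star for mouse 20. The star lies alone at the right, at 6.39 log2 CPM of Hras, and the other tumors form a narrow band with no relation that passed the adjustment.

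The genes whose log2 CPM followed Hras most closely over the 20 tumors were Etfb (r = 0.98), Ap2s1 (0.979), Gstp1 (0.977), Mrpl17 (0.977) and Ppp1r14b (0.976), of 14176 genes compared. Without mouse 20 they were Ap1s1 (0.887), Pex2 (0.865), Gm9761 (0.863), Ctnnbip1 (0.858) and Snrnp40 (0.853), none of which was among the former 5. For Dusp6 the closest were Pnpla8 (0.92), Ppp4r1 (0.909), Mob1b (0.904), Elmo2 (0.903) and B4galt5 (0.903), and without mouse 20 they were Gm2026 (0.815), Pnpla8 (0.81), B4galt5 (0.794), Ppp4r1 (0.793) and Gad2 (0.791).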

How the data were processed

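RNA of 24 tumors was measured in stranded poly(A) libraries. According to the methods and the labels' processing notes, reads were checked with FastQC, mapped with HISAT2 and assembled with StringTie. The notes list a human build although the identifiers are mouse, and the program that made the counts is not given in the sources used here. The authors deposited raw counts per Ensembl gene. Of 55401 identifiers, 55141 were matched to GENCODE M21 (GRCm38). Between 30.4% and 35.5% of counts from 1 to 20 in each library were multiples of 4, so dividing by 4 was an alternative, and the cause was not tested.

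Counts were tested with edgeR 4.0.16 (R 4.3.3): filterByExpr, TMM and the quasi-likelihood test, two-sided, adjusted by Benjamini-Hochberg over all genes tested. All 10 members passed the filter in every comparison. A fit held the groups compared alone, apart from joint fits of the 4 EOS groups, of the 4 day 14 groups (interaction) and of all 8 intratibial groups (change of the cabo effect). DESeq2 1.42.0 was an alternative. The correction for GC content and length used splines with 5 degrees of freedom. Correlations used 100000 permutations, two-sided. Log2 CPM values used a prior count of 2. The code was tested on simulated data. The members and lists were chosen with earlier results of these data known. The text names all members, listed genes that were called (at most the 4 smallest p per list and direction), Nras, Ccnd1, Epha4 and Met, and the 5 genes most like Hras and Dusp6 by Pearson's r among genes with a mean of at least 1 CPM. Correlations and counts of members without overlap, both without mouse 20, were added after seeing the data. The rule also named 1 further gene, which is not reported here.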

Additional observations from a re-analysis of the deposited data

How the results depend on the processing

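Without each tumor in turn, the members called in the SC comparison stayed lower, with Hras at -4.43 to -3.12, Etv4 at -2.97 to -1.88 and Epha2 at -4.00 to -3.04. Those SC fits leave 1 tumor in a group, which is assumed to vary like the other group, so they say little about stability. Values near 0 changed sign. Without each tumor, Dusp4 ranged from -0.26 to 0.69, Dusp6 from -0.15 to 0.22 and Spry4 from -0.13 to 0.10. Spry4 was also 0.054 with DESeq2, 0.073 with RLE size factors, 0.016 with counts divided by 4 and 0.020 when GC content and length were corrected for. That correction gave -0.25 for Dusp6, 0.089 for Etv4 and 2.07 for Phlda1. With SC replicate numbers as a replicate block, 3 members were called (Hras -3.76), beside 4248 of 19360 genes. Block and correction together called 5 members (Hras, Dusp4, Spry2, Phlda1 and Epha2), beside 2365 of 19360 genes. They put Dusp6 at -0.24, Spry4 at 0.029, Etv4 at 0.082 and Phlda1 at 2.07. The labels do not say whether same-numbered tumors are paired. Their deviations from group means correlated at r = 0.03 over genes, a single value that cannot settle this. The causes were not tested.

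In the intratibial comparisons, DESeq2 called 1 member for day 14 cabo and 3 for cabo between EOS and day 14, where counts divided by 4 gave 1 and leaving out each tumor 0 to 1. Without each tumor, Hras ranged from -0.15 to 1.37 with IL-27+cabo at day 14, from -1.41 to 0.15 for IL-27+cabo between EOS and day 14 and from -0.073 to 1.40 in the interaction, the sign changing without mouse 20. Of the correlations with Hras, 2 of 9 passed over all tumors, 5 with RLE factors and 7 with group means removed. The permutation for the 7 shuffled deviations that are tied within groups, so those p-values may be too small. After the GC correction 0 passed (Dusp4 -0.552 against -0.625, Epha2 -0.795 against -0.834, Etv5 -0.341 against -0.721), and 0 passed without mouse 20 (Dusp4 -0.495, Epha2 -0.069).

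Over all genes, DESeq2 called 5968 in the SC comparison (2089 higher and 3879 lower), block and correction together 2365, and leaving out a tumor gave 2093 to 5200. For day 14 cabo (352 by edgeR), DESeq2 called 1324, no filter 101, a fit of all 4 groups 26, and leaving out a tumor 80 to 588. For IL-27+cabo at day 14 (12 by edgeR) the counts were 445 (DESeq2), 37 (GC correction), 30 (4 groups) and 0 to 175. For cabo between EOS and day 14 (400 by edgeR) they were 1650 (DESeq2), 110 (no filter), 53 (all 8 groups) and 62 to 439. In the controls between EOS and day 14, where edgeR called 20, DESeq2 called 823, and no filter, the fit of 8 groups and leaving out a tumor 0. For IL-27+cabo between EOS and day 14, the fit of 8 groups called 71 and DESeq2 334. For the change of the cabo effect (17 by edgeR), DESeq2 called 88 and leaving out a tumor gave 6 to 16. Where edgeR called 0, DESeq2 called 3 for IL-27 at day 14, 26, 242 and 792 for IL-27, cabo and both at EOS, 111 for IL-27 between EOS and day 14 and 3 in the interaction.

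Dusp4 also moved with single tumors, from -1.01 to -0.07 for cabo at day 14, from 0.11 to 1.22 for IL-27 at day 14 and from -1.99 to -0.88 in the interaction.

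The 2 or 3 tumors per group limit all comparisons, and Hras had the lowest counts, down to 163.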
